A study of Mus musculus with 16 samples.

Results

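The transforming growth factor-beta (TGF-beta) genes described here are 9 of the 30095 genes in the deposited expression table, chosen by gene symbol: the ligands Tgfb1, Tgfb2 and Tgfb3, the receptors Tgfbr1, Tgfbr2 and Tgfbr3, and Smad7, Thbs1 and Inhba. Each of the 9 was found on a row of its own, and all 9 were among the 17546 genes that reached 1 CPM (reads of a gene scaled to the size of its library) in at least 2 libraries and were tested. RNA was sequenced from whole lungs of C57BL/6 mice that carried tumours of the mouse lung cancer line HKP1, and a library therefore mixes RNA from cancer cells, lung tissue and infiltrating leukocytes. There were 16 libraries, each from a pool of 3 to 4 mice, taken 24 to 48 hours after radiotherapy. Among mice given anti-PD-1, which blocks an inhibitory receptor of T cells, there were 2 libraries at 0 Gy, 3 at 4 Gy and 3 at 8 Gy. With control IgG there were 3 at 0 Gy, 2 at 4 Gy and 3 at 8 Gy. Every group carried HKP1 tumours, so the lungs at 0 Gy were unirradiated but not tumour-free. No marker of the tumour line was listed, so its share of the RNA was not measured. Nothing in the labels places a group's pools in different cages or on different days, and the p-values measure only the spread between these pools.

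TGF-beta is secreted in a latent form, bound to its own propeptide and tethered to the matrix by latent TGF-beta binding proteins, and is released by integrins, proteases or thrombospondin-1, the product of Thbs1. The active ligand brings together the kinases TGFBR2 and TGFBR1, which phosphorylate receptor SMADs that act with SMAD4 in the nucleus, while the co-receptor TGFBR3 (betaglycan) presents ligand and SMAD7 is an inhibitory SMAD that the pathway itself induces. In the lung the pathway is known for matrix deposition and fibrosis after injury, radiation included, and in tumours for restraining T cells.

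Promoter sequence is shown for the ligands Tgfb1 and Tgfb2, which differed in opposite directions between 8 and 0 Gy, and for the signalling receptors Tgfbr1 and Tgfbr2, which were lowest in the same 2 libraries. Each line is the 250 bases before a RefSeq start on GRCm38.p6, read on the gene's own strand, 5′ to 3′. Capitals mark, on either strand, the TATA box TATAAA, the GC box GGGCGG and the Smad-binding box CAGAC, and no match overlapped another in these windows. The Tgfb1 window is chr7:25686752-25687001 on the plus strand, the Tgfb2 window chr1:186705990-186706239 on the minus strand, the Tgfbr1 window chr4:47352972-47353221 on the plus strand and the Tgfbr2 window chr9:116175364-116175613 on the minus strand.
Tgfb1: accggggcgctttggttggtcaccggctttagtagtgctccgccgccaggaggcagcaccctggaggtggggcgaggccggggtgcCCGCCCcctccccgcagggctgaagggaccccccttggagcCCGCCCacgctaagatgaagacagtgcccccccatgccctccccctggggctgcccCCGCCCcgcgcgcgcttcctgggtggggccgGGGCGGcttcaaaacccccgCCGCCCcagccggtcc
Tgfb2: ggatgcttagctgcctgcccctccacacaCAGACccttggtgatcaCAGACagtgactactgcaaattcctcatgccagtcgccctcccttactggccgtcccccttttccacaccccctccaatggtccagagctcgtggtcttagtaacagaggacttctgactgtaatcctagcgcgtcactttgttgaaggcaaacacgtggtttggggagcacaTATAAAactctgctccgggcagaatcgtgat
Tgfbr1: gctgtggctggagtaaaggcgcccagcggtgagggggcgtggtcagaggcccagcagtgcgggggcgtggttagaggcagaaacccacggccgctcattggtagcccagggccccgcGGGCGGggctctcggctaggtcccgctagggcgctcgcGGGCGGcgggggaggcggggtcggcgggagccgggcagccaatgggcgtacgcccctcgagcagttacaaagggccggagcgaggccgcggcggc
Tgfbr2: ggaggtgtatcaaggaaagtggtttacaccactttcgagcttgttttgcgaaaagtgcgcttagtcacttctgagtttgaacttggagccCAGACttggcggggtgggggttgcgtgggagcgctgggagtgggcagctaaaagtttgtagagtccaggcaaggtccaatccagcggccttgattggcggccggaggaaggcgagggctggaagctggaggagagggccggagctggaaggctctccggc
The Tgfb1 window, 75.2% G or C, held 5 GC boxes and neither of the other motifs. The Tgfb2 window, 53.6% G or C, held 1 TATA box and 2 Smad boxes and no GC box. The Tgfbr1 window held 2 GC boxes only, and the Tgfbr2 window 1 Smad box only. Over 32851 RefSeq promoters of the same length, 12.4% held the TATA box, 32.7% the GC box and 42.2% the Smad box, so each motif is common. These matches are letters in a window and were not tested for binding. A RefSeq promoter was used for 5 of the 9 members. The fifth, Inhba, had a window of 43.2% G or C with 1 TATA box, and Tgfbr1 has another listed start whose window held 1 Smad box.

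Anti-PD-1 4 Gy replicates 2 and 3 stood apart from the other 14 libraries. In them 5315 and 6086 genes were without a read, compared with 2273 to 3851 elsewhere, and their scores on the first principal component were -98.3 and -81.5, against -46.8 to 51.9. They are called the 2 outlying libraries, and results that rest on them are given with and without them. Across the 16 libraries 1 read was worth 0.0155 to 0.0418 CPM, and the lowest member of a library still had 157 to 1064 reads. The labels number the 0 Gy libraries S13 to S17 and the irradiated ones S26 to S36. Each group holds an unbroken run of these numbers, ordered by dose and, within each dose, by antibody. Any step that follows this numbering cannot be told apart from irradiation, from irradiated dose or from antibody within a dose. In whole-lung RNA, fewer cells of a type and less RNA per cell cannot be told apart.

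Per kilobase of exon, Thbs1, which encodes a matrix protein of platelets, macrophages and stroma, had the highest level of the members at 0 Gy, at 43.4 ± 5.06 CPM per kilobase (SD, n = 5), and no library of any other member reached its lowest value there. Tgfb1 (25.4 ± 7.98), Tgfbr2 (24.8 ± 1.80) and Tgfb3 (20.3 ± 3.84 CPM per kilobase) followed, with ranges that overlapped from each to the next. Tgfbr1 (11.6 ± 4.62) and Smad7 (7.20 ± 1.13 CPM per kilobase) also overlapped. The lowest levels, with overlapping ranges, were those of Tgfbr3 (3.80 ± 1.34), Inhba (3.44 ± 2.90) and Tgfb2 (3.07 ± 0.423 CPM per kilobase). At 8 Gy Tgfb1 averaged 31.9 ± 8.58 and Tgfb3 11.3 ± 4.83 CPM per kilobase (SD, n = 6), and the ranges of these ligands did not overlap. They were also apart at 4 Gy, at 26 to 31.8 for Tgfb1 and 11.3 to 21.2 CPM per kilobase for Tgfb3. The annotated spans of Tgfb2, Tgfb3, Tgfbr3, Thbs1 and Inhba overlap genes on the opposite strand. The use of strand in counting is not given in the sources used here, so reads of those overlaps cannot be assigned. The span of Tgfbr3 also overlaps genes on its own strand, which counting by strand would not separate.

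**Figure D1:**
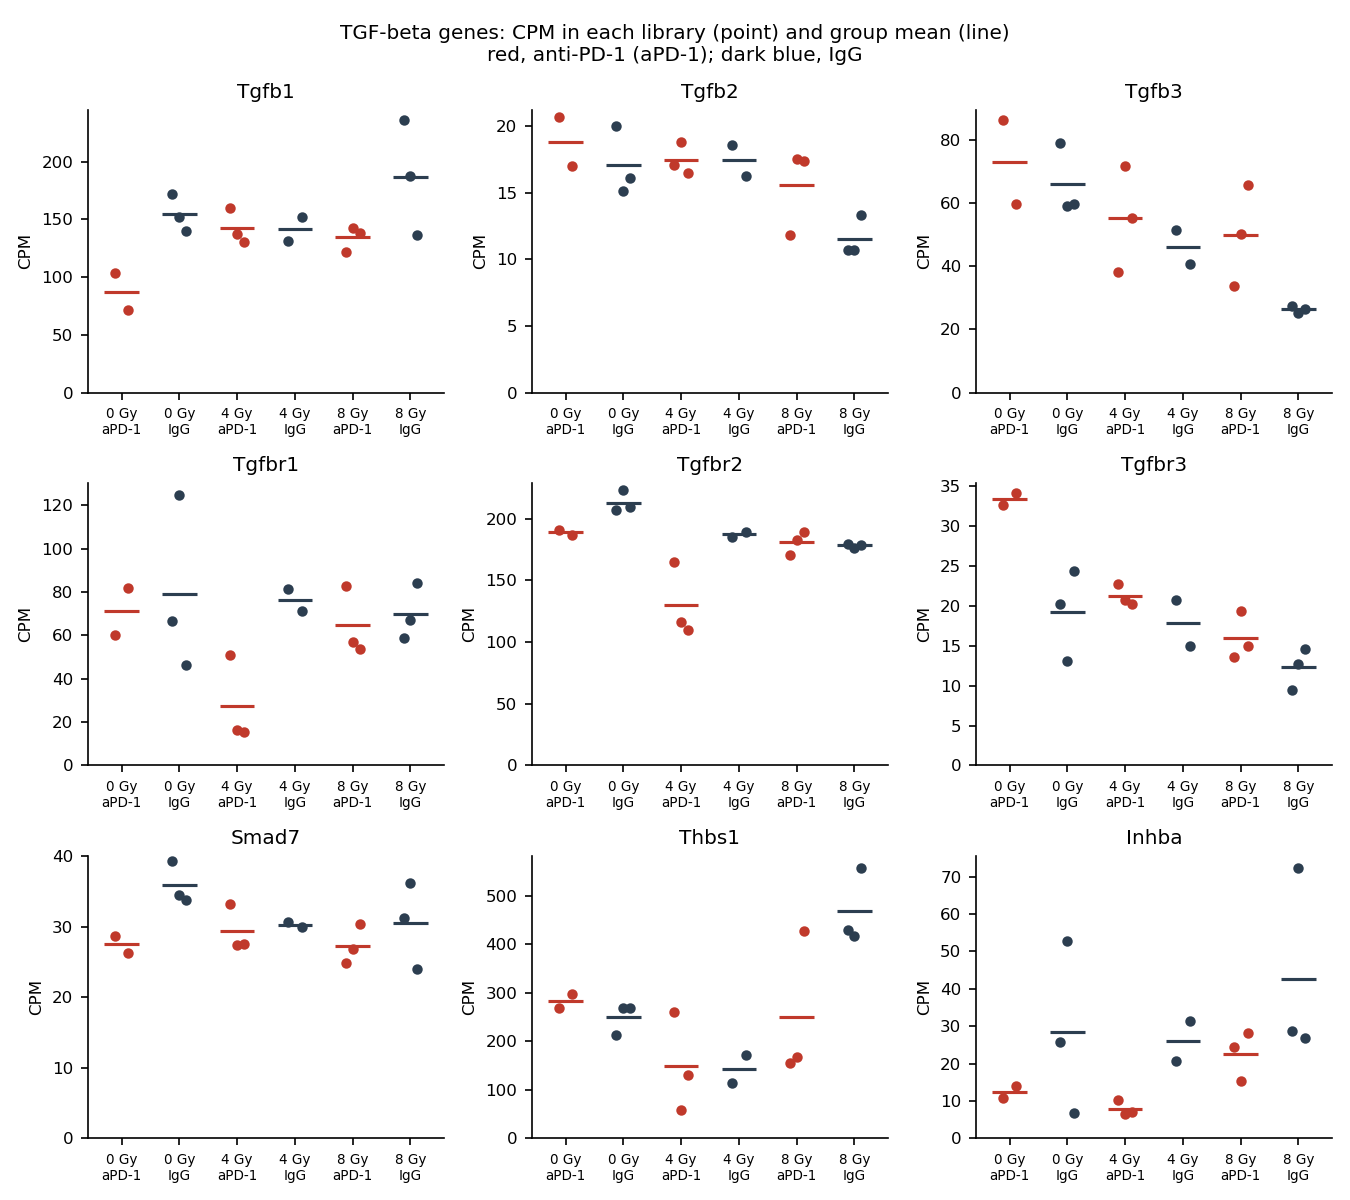
CPM of each of the 9 genes (vertical axis, from 0) in every library (points) with the group mean (line), by dose and antibody (horizontal axis; aPD-1 is anti-PD-1). Tgfb3 in the IgG 8 Gy libraries sits at 25.3 to 27.3 CPM, below every other library, and Tgfbr1 falls under 20 CPM in 2 libraries of the anti-PD-1 4 Gy group.

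Over both antibodies, 8 Gy against 0 Gy changed 4 of the 9 genes at an adjusted p under 0.05 (limma on log2(CPM + 0.5), Benjamini-Hochberg over all genes tested). Tgfb3, Tgfbr3 and Tgfb2 fell and Tgfb1 rose. Of all genes tested 20.7% passed in this comparison, 4.68% higher and 16.1% lower (the members were 1 higher and 3 lower of 9). Between 4 and 0 Gy only Tgfbr2 passed, lower, beside 17.5% of all genes (5.33% higher and 12.2% lower). Thbs1 rose and Tgfb2 and Tgfbr3 fell at 8 Gy against 4 Gy, 3 of 9 beside 34.3% of all genes (17% higher and 17.2% lower). The median log2 fold change of the members was -0.13, -0.36 and 0.14 in these 3 comparisons, beside -0.09, -0.14 and 0.06 over all genes. Setting the library medians equal moved the all-gene median to 0.02 at 8 Gy against 0 Gy and to -0.03 at 4 Gy against 0 Gy. The share of higher genes among those called was 45.0% under equal medians, against 22.6% as deposited, at 8 Gy against 0 Gy, and 61.5% under equal medians, against 30.4% as deposited, at 4 Gy against 0 Gy. The 8 and 4 Gy comparisons share the 0 Gy libraries.

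Among the ligands, Tgfb3, which is expressed by stromal cells and lies on chromosome 12 from 86056745 to 86079041, had the clearest difference. At 0 Gy its CPM was 86.2 and 59.5 with anti-PD-1 and 79.0, 59.0 and 59.5 with IgG. At 4 Gy it was 38.1, 71.8 and 55.4 with anti-PD-1 and 51.4 and 40.7 with IgG. At 8 Gy it was 33.7, 50.02 and 65.6 with anti-PD-1 and 27.3, 25.3 and 26.6 with IgG. With anti-PD-1 the 8 Gy and 0 Gy ranges overlapped, whereas all 8 Gy libraries with IgG lay under all others of the series. Tgfb3 fell at 8 Gy against 0 Gy over both antibodies, its log2 fold change being -0.93 ± 0.19 (SE; adjusted p = 0.0044 in limma). No single library ended the call when left out, the 16 values running from -1.06 to -0.80 with adjusted p from 0.00235 to 0.0272. With anti-PD-1 alone the value was -0.57 ± 0.28 (adjusted p = 0.295). With IgG alone Tgfb3 fell by 1.29 ± 0.25 (adjusted p = 0.00857; 10.6% of all genes passed), and without IgG 0 Gy replicate 1 the value was -1.15 (adjusted p = 0.0526). The difference between the arms was 0.72 ± 0.38 on the log2 scale (adjusted p = 0.997), which is not shown to differ from 0. The value at 4 Gy against 0 Gy was -0.47 ± 0.20 (adjusted p = 0.105), and -0.71 (adjusted p = 0.127) without the 2 outlying libraries. Compared with 4 Gy, 8 Gy gave -0.47 ± 0.19 (adjusted p = 0.069), and -0.23 (adjusted p = 0.491) without them. That last comparison passed without anti-PD-1 4 Gy replicate 1 (-0.59, adjusted p = 0.0174) or anti-PD-1 8 Gy replicate 3 (-0.58, adjusted p = 0.0292).

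Tgfb1, the ligand of immune and many other cells, on chromosome 7 from 25687002 to 25705077, ran the other way at 8 Gy. At 0 Gy its CPM was 104 and 71.5 with anti-PD-1 and 172, 152 and 139.95 with IgG. After 4 Gy it was 160.25, 137 and 131 with anti-PD-1 and 132 and 152 with IgG. After 8 Gy it was 122, 143 and 139 with anti-PD-1 and 236, 188 and 136 with IgG. The 2 anti-PD-1 libraries at 0 Gy were the lowest of the 16, and with IgG the 8 Gy and 0 Gy ranges overlapped. Tgfb1 rose by 0.44 ± 0.14 on the log2 scale at 8 Gy against 0 Gy (adjusted p = 0.0406). The call ended without any of 12 of the 16 libraries, and held without IgG 8 Gy replicate 3, anti-PD-1 0 Gy replicate 1 and anti-PD-1 4 Gy replicates 1 and 3. Without anti-PD-1 0 Gy replicate 2 the value was 0.31 (adjusted p = 0.209). It also ended without the 2 outlying libraries (0.44, adjusted p = 0.0523). Within arms the change at 8 Gy was 0.64 ± 0.21 with anti-PD-1 (adjusted p = 0.117) and 0.24 ± 0.19 with IgG (adjusted p = 0.447). Tgfb1 rose at 4 Gy against 0 Gy with anti-PD-1, where 39.3% of all genes passed, by 0.72 ± 0.21 (adjusted p = 0.0169), a call that ended without anti-PD-1 0 Gy replicate 2 (0.46, adjusted p = 0.20) and without the 2 outlying libraries (0.89, adjusted p = 0.168). Over both antibodies the value was 0.30 ± 0.15 at 4 Gy against 0 Gy (adjusted p = 0.153) and 0.14 ± 0.14 at 8 Gy against 4 Gy (adjusted p = 0.455; 0.05 without the outlying libraries).

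Tgfb2, the ligand that depends most on betaglycan for binding, on chromosome 1 from 186622792 to 186705989, was the lowest of the 3 TGF-beta ligands per kilobase of exon. At 0 Gy its CPM was 20.7 and 16.98 with anti-PD-1 and 20.01, 15.1 and 16.1 with IgG, and at 4 Gy it ran from 16.3 to 18.8 over the 5 libraries. At 8 Gy it was 11.8, 17.5 and 17.3 with anti-PD-1 and 10.7, 10.7 and 13.3 with IgG. With IgG every 8 Gy library lay under every 0 Gy and 4 Gy library, while with anti-PD-1 only replicate 1 did. Tgfb2 fell by 0.41 ± 0.13 on the log2 scale at 8 Gy against 0 Gy (adjusted p = 0.04) and by 0.38 ± 0.13 at 8 Gy against 4 Gy (adjusted p = 0.0399). Both calls are close to the threshold. The fall at 8 against 0 Gy ended without any of 8 libraries (IgG 0 Gy replicate 1, IgG 4 Gy replicates 1 and 2, IgG 8 Gy replicates 1 and 2, anti-PD-1 0 Gy replicates 1 and 2, and anti-PD-1 8 Gy replicate 1), with values of -0.48 to -0.32 over the 16 fits and adjusted p up to 0.153. It also ended under equal library medians (-0.30, adjusted p = 0.111). The fall at 8 against 4 Gy ended without any of 7 libraries (IgG 4 Gy replicates 1 and 2, IgG 8 Gy replicates 1 and 2, anti-PD-1 4 Gy replicates 2 and 3, and anti-PD-1 8 Gy replicate 1), with adjusted p up to 0.139. Tgfb2 had -0.03 ± 0.14 at 4 Gy against 0 Gy (adjusted p = 0.871), with a sign that turned under other scalings. Without the 2 outlying libraries the 2 falls were -0.41 (adjusted p = 0.0507) and -0.36 (adjusted p = 0.167).

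Inhba, which encodes the activin A subunit, a ligand of the same superfamily that signals through other receptors to the same SMADs, varied most between pools. On chromosome 13 from 16011851 to 16031621, it had 10.8 and 14.01 CPM with anti-PD-1 and 25.8, 52.7 and 6.77 CPM with IgG at 0 Gy. After 4 Gy it had 10.2, 6.56 and 7.03 CPM with anti-PD-1 and 20.7 and 31.3 CPM with IgG. After 8 Gy it had 24.4, 15.3 and 28.2 CPM with anti-PD-1 and 28.6, 72.2 and 26.9 CPM with IgG. With IgG the 3 libraries at 0 Gy alone spanned most of the range of the series, and no comparison of Inhba passed the test. The value at 8 Gy against 0 Gy was 0.82 ± 0.42 on the log2 scale (adjusted p = 0.178) and that at 8 Gy against 4 Gy 1.01 ± 0.42 (adjusted p = 0.0743). Between 4 and 0 Gy it was -0.18 ± 0.44 (adjusted p = 0.777), and 0.00 without the 2 outlying libraries. Without IgG 0 Gy replicate 2 the first 2 values were 1.15 (adjusted p = 0.0296) and 1.01 (adjusted p = 0.0296), and without IgG 0 Gy replicate 3 the second was 1.01 (adjusted p = 0.0135). For anti-PD-1 against IgG over all doses it was -1.07 ± 0.35 (adjusted p = 0.123), and without IgG 0 Gy replicate 3 it was -1.33 (adjusted p = 0.0123).

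Thbs1, whose product can release active TGF-beta from its latent complex and which is also a target of the pathway, lies on chromosome 2 from 118111876 to 118127133. At 0 Gy its CPM was 268 and 298 with anti-PD-1 and 214, 269 and 269 with IgG. The 4 Gy CPM was 259.9, 58.7 and 131 with anti-PD-1 and 114 and 173 with IgG. The 8 Gy CPM was 155, 168 and 427 with anti-PD-1 and 429, 418 and 557 with IgG. The 0 Gy libraries lay close together, 4 of the 5 libraries at 4 Gy lay under all of them, and at 8 Gy 2 of the 3 anti-PD-1 libraries were under every 0 Gy value while the IgG libraries were high. Thbs1 rose by 1.27 ± 0.33 on the log2 scale at 8 Gy against 4 Gy over both antibodies (adjusted p = 0.0108). The call ended without IgG 4 Gy replicate 1 (1.12, adjusted p = 0.0567) and without the 2 outlying libraries (0.75, adjusted p = 0.109). With anti-PD-1 alone the value was 0.82 ± 0.44 (adjusted p = 0.146). With IgG alone, where the groups did not overlap and 7.58% of all genes passed, the rise was 1.72 ± 0.49 (adjusted p = 0.0479). That call uses neither outlying library directly and gave 1.72 (adjusted p = 0.0206) without them, but it ended without any of 10 single libraries, the highest adjusted p being 0.38 without IgG 4 Gy replicate 1 (1.42). It held without IgG 0 Gy replicates 2 and 3, anti-PD-1 4 Gy replicates 1 and 2, and anti-PD-1 8 Gy replicates 1 and 3. Between 4 and 0 Gy the log2 value was -1.0 ± 0.35 (adjusted p = 0.0592), and -0.47 (adjusted p = 0.403) without the outlying libraries. It passed, lower, without anti-PD-1 4 Gy replicate 1 (-1.26, adjusted p = 0.00899) or anti-PD-1 8 Gy replicate 3 (-1.0, adjusted p = 0.0424). Between 8 and 0 Gy it was 0.28 ± 0.33 (adjusted p = 0.59), made up of -0.34 ± 0.49 with anti-PD-1 and 0.90 ± 0.44 with IgG, a difference of -1.24 ± 0.66 (adjusted p = 0.997).

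Tgfbr3, the co-receptor, on chromosome 5 from 107106570 to 107289629, was lower at 8 Gy than at 0 Gy. At 0 Gy its CPM was 32.7 and 34.2 with anti-PD-1 and 20.3, 13.1 and 24.3 with IgG. After 4 Gy it was 22.7, 20.7 and 20.2 with anti-PD-1 and 20.8 and 14.9 with IgG. After 8 Gy it was 13.6, 19.4 and 15.02 with anti-PD-1 and 9.51, 12.7 and 14.6 with IgG. With anti-PD-1 the 3 doses did not overlap, in the order 0, 4 and 8 Gy from high to low, while with IgG the 8 Gy range overlapped that at 0 Gy and lay just under that at 4 Gy. Over both antibodies Tgfbr3 fell by 0.83 ± 0.17 on the log2 scale at 8 Gy against 0 Gy (adjusted p = 0.00441), and no single library ended that call when left out (-0.95 to -0.73, adjusted p from 0.000883 to 0.024). It also fell at 8 Gy against 4 Gy, by 0.47 ± 0.17 (adjusted p = 0.0452). That second call ended without any of 11 of the 16 libraries, with adjusted p up to 0.196 (-0.35) without IgG 4 Gy replicate 1, and it held without IgG 0 Gy replicates 2 and 3, IgG 4 Gy replicate 2, IgG 8 Gy replicate 3 and anti-PD-1 8 Gy replicate 2. Without the 2 outlying libraries it was -0.52 (adjusted p = 0.136). Tgfbr3 had -0.36 ± 0.18 at 4 Gy against 0 Gy (adjusted p = 0.147). Within arms the change at 8 Gy against 0 Gy was -1.05 ± 0.25 with anti-PD-1 (adjusted p = 0.0386; 2.83% of all genes passed) and -0.60 ± 0.22 with IgG (adjusted p = 0.101), and the difference between them was -0.45 ± 0.34 (adjusted p = 0.997). The call with anti-PD-1 ended without any of 9 of the 16 libraries, the adjusted p reaching up to 0.308 (-1.02) without anti-PD-1 0 Gy replicate 2, and it held without IgG 0 Gy replicates 2 and 3, IgG 4 Gy replicates 1 and 2, IgG 8 Gy replicates 1 and 3, and anti-PD-1 4 Gy replicate 1.

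The signalling receptors differed mainly in the anti-PD-1 4 Gy group. Tgfbr1, the type I kinase, on chromosome 4 from 47353222 to 47414931, had 60.3 and 81.9 CPM with anti-PD-1 and 66.4, 125 and 46.2 CPM with IgG at 0 Gy. At 4 Gy it had 51.1, 16.3 and 15.2 CPM with anti-PD-1 and 81.5 and 71.4 CPM with IgG. At 8 Gy it had 82.7, 57.1 and 53.9 CPM with anti-PD-1 and 58.7, 67.0 and 84.4 CPM with IgG. The 2 low values are the 2 outlying libraries, and every other library lay at 46.2 CPM or above. Tgfbr2, the type II kinase, on chromosome 9 from 116084293 to 116175360, was also lowest in these 2 libraries. At 0 Gy it had 191 and 187 CPM with anti-PD-1 and 207, 223 and 209 CPM with IgG. At 4 Gy it had 165, 116 and 109.9 CPM with anti-PD-1 and 185 and 189 CPM with IgG. At 8 Gy it had 170.2, 183 and 189.5 CPM with anti-PD-1 and 179.7, 176 and 179 CPM with IgG. Outside the outlying libraries Tgfbr2 stayed between 165 and 223 CPM.

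Between anti-PD-1 and IgG at 4 Gy the difference was -1.68 ± 0.46 for Tgfbr1 (adjusted p = 0.0357) and -0.54 ± 0.15 for Tgfbr2 (adjusted p = 0.036) on the log2 scale, the 2 members of 9 called, beside 15.5% of all genes. Without the 2 outlying libraries these were -0.57 (adjusted p = 0.681) and -0.18 (adjusted p = 0.674). Against 0 Gy with the same antibody, 4 Gy gave -1.57 ± 0.46 for Tgfbr1 (adjusted p = 0.0168) and -0.56 ± 0.15 for Tgfbr2 (adjusted p = 0.0116). Without the outlying libraries those became -0.46 (adjusted p = 0.573) and -0.19 (adjusted p = 0.428). With anti-PD-1 at 8 Gy against 4 Gy, where 41.8% of all genes passed, Tgfbr1 rose by 1.42 ± 0.41 (adjusted p = 0.0141) and Tgfbr2 by 0.49 ± 0.13 (adjusted p = 0.0104). Without the outlying libraries the values were 0.31 (adjusted p = 0.715) and 0.13 (adjusted p = 0.591). Leaving out replicate 1 of that group, which keeps both outlying libraries, gave -2.24 for Tgfbr1 and -0.73 for Tgfbr2 between the antibodies at 4 Gy. That comparison also lost both calls without either IgG 4 Gy library (adjusted p from 0.131 to 0.188) or either outlying one (0.117 and 0.142), and Tgfbr2 lost its call without IgG 8 Gy replicate 2 (0.0508) or anti-PD-1 8 Gy replicate 2 (0.0503). With anti-PD-1, the Tgfbr1 calls ended at 4 against 0 Gy without anti-PD-1 0 Gy replicate 2 (-1.35, adjusted p = 0.122) or either outlying library, and at 8 against 4 Gy without either outlying library or anti-PD-1 8 Gy replicate 1 (1.23, adjusted p = 0.0609). The Tgfbr2 calls ended without anti-PD-1 0 Gy replicates 1 or 2 at 4 against 0 Gy (adjusted p = 0.0576 and 0.0678) and without anti-PD-1 4 Gy replicate 3 at 8 against 4 Gy (0.38, adjusted p = 0.0586). Over both antibodies Tgfbr2 fell by 0.37 ± 0.10 at 4 Gy against 0 Gy (adjusted p = 0.0317), and by 0.19 (adjusted p = 0.259) without the outlying libraries. That call also ended without any of IgG 0 Gy replicates 1 and 2, both IgG 4 Gy replicates, both anti-PD-1 0 Gy replicates and anti-PD-1 4 Gy replicates 2 and 3, with adjusted p up to 0.114 (-0.38, without IgG 4 Gy replicate 2). Tgfbr1 had -0.75 ± 0.32 in that comparison (adjusted p = 0.106), -0.19 (adjusted p = 0.737) without the outlying libraries, and passed without IgG 0 Gy replicate 3 (-0.91, adjusted p = 0.0415) or anti-PD-1 4 Gy replicate 1 (-1.03, adjusted p = 0.00903). Over both antibodies Tgfbr1 at 8 Gy against 4 Gy had 0.64 ± 0.31 (adjusted p = 0.115) and Tgfbr2 0.21 ± 0.10 (adjusted p = 0.11), against 0.09 and 0.03 without the outlying libraries. Both passed without anti-PD-1 4 Gy replicate 1 (adjusted p = 0.00706 and 0.00496). Neither kinase passed at 8 Gy against 0 Gy: Tgfbr1 had -0.11 ± 0.31 (95% interval -0.76 to 0.55; adjusted p = 0.835) and Tgfbr2 had -0.16 ± 0.10 (95% interval -0.37 to 0.05; adjusted p = 0.274).

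**Figure D2:**
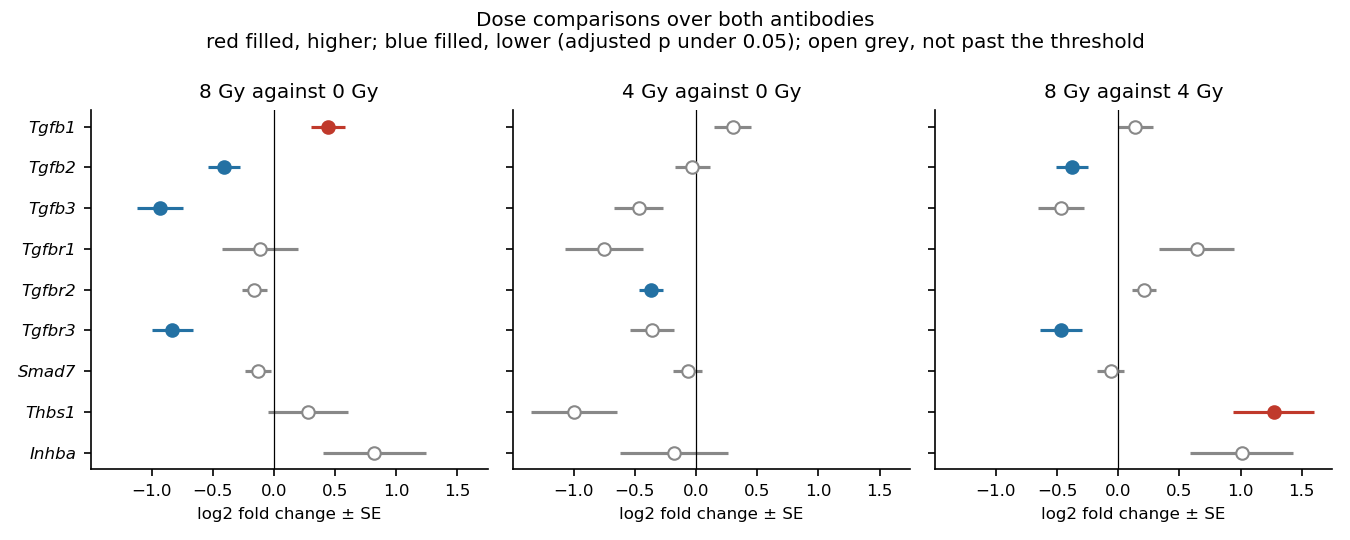
Log2 fold changes (horizontal axis) with their SE for the 9 genes in the 3 dose comparisons over both antibodies; filled points passed an adjusted p of 0.05 in limma. At 8 Gy against 0 Gy Tgfb3 and Tgfbr3 lie farthest below 0, at -0.93 and -0.83, and Thbs1 lies at 1.27 at 8 Gy against 4 Gy.

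Smad7, the inhibitory SMAD, varied least. It ran from 26.3 to 39.3 CPM with a median of 33.9 CPM at 0 Gy, from 27.4 to 33.3 CPM with a median of 29.9 CPM at 4 Gy, and from 24.0 to 36.3 CPM with a median of 28.6 CPM at 8 Gy. The 3 ranges overlapped and no comparison of Smad7 passed the test. The value at 8 Gy against 0 Gy was -0.13 ± 0.11 on the log2 scale, with a 95% interval of -0.37 to 0.11 (adjusted p = 0.447). That at 4 Gy against 0 Gy was -0.07 ± 0.12 (95% interval -0.33 to 0.18), and its sign turned under quantile normalization (0.07), equal library medians (0.04) and without the outlying libraries (0.02). The 8 Gy against 4 Gy value was -0.06 ± 0.11 (adjusted p = 0.719; -0.15 without the outlying libraries).

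Anti-PD-1 against IgG over all doses called none of the 9 genes by limma, beside 41 of all genes tested, or 0.234%. At an unadjusted p under 0.05 it was 6 of the 9, and 3353 of all genes tested, or 19.1%. The lowest adjusted p were those of Tgfb1, at 126 ± 27.4 CPM with anti-PD-1 and 164 ± 34.9 CPM with IgG (SD, n = 8 each; -0.42 ± 0.12 on the log2 scale, adjusted p = 0.0908), and Tgfbr3, at 22.3 ± 7.49 CPM with anti-PD-1 and 16.3 ± 4.98 CPM with IgG (0.49 ± 0.14, adjusted p = 0.0973). Both sets of libraries overlapped in both genes. The other values were 0.40 ± 0.16 for Tgfb3 (adjusted p = 0.186; 0.24 without the 2 outlying libraries), 0.18 ± 0.11 for Tgfb2 (adjusted p = 0.38), -0.62 ± 0.25 for Tgfbr1 (adjusted p = 0.205; -0.25 without them), -0.23 ± 0.08 for Tgfbr2 (adjusted p = 0.151; -0.11 without them), -0.19 ± 0.09 for Smad7 (adjusted p = 0.295) and -0.34 ± 0.27 for Thbs1 (adjusted p = 0.512; 0.01 without them). Single libraries moved these values across the threshold: without IgG 0 Gy replicate 3 Tgfb1 gave -0.45 (adjusted p = 0.0413) and Tgfbr3 0.55 (adjusted p = 0.0283), and without anti-PD-1 4 Gy replicate 1 Tgfb1 gave -0.45 (adjusted p = 0.0479), Tgfbr1 -0.80 (adjusted p = 0.0353) and Tgfbr2 -0.29 (adjusted p = 0.0237). At 0 Gy and at 8 Gy anti-PD-1 against IgG also called no member, where 0.274% and 0.0057% of all genes passed, and an unadjusted p under 0.05 was reached by 3 and 4 of the 9 members, beside 10.7% and 12.5% of all genes. At 0 Gy every anti-PD-1 library lay under every IgG library for Tgfb1 (-0.84 ± 0.21, adjusted p = 0.118), Tgfbr2 and Smad7, and above them for Tgfbr3. At 8 Gy the antibodies did not overlap for Tgfb3 alone (0.85 ± 0.25, adjusted p = 0.231, every anti-PD-1 library higher). Groups of 2 or 3 libraries can separate without a difference. The share of all genes with separated ranges was not counted, here or in the paragraphs above. With IgG, 4 Gy against 0 Gy called no member either (0.0057% of all genes passed; none of the 9 had an unadjusted p under 0.05, beside 11.5% of all genes). No dose effect of a member was shown to differ between the antibodies: the lowest adjusted p of these difference tests was 0.0734, for Tgfb1 at 4 Gy (0.85 ± 0.30), where 0%, 9.08% and 0% of all genes passed for 8 against 0, 4 against 0 and 8 against 4 Gy (limma). At an unadjusted p under 0.05 there were 0, 2 and 2 of the 9 members in these tests, beside 3.41%, 33.9% and 27.4% of all genes.

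Beyond the 9 members, 80 further genes of the pathway were listed in 4 groups by role, of which 77 were tested. Of these, 4 rose and 13 fell at 8 Gy against 0 Gy, or 22.1%, close to the 20.7% of all genes. Between 4 and 0 Gy 12 rose and 14 fell (33.8%, beside 17.5% of all genes). With all libraries 43 of the 77 had an unadjusted p under 0.05, beside 38.2% of all genes. Without the 2 outlying libraries 1 rose and none fell (1.3%), where 87 of all genes passed, against 3076 with them. Between 8 and 4 Gy 12 rose and 28 fell (51.9%, beside 34.3% of all genes). Without the outlying libraries 3 rose and 16 fell (24.7%), where 2117 of all genes passed, against 6011 with them. Anti-PD-1 against IgG over all doses called none of them by limma, with 13 of the 77 at an unadjusted p under 0.05, beside 19.1% of all genes.

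Among 24 other ligands and latency proteins, 7 fell and 3 rose at 8 Gy against 0 Gy (41.7%, beside 20.7% of all genes). The falls were led by Thbs2, the relative of Thbs1, with 1.30 ± 0.508 CPM at 8 Gy, against 4.98 ± 1.34 CPM at 0 Gy (SD, n = 6 and 5; -1.64 ± 0.21 on the log2 scale, adjusted p = 0.000425). Ltbp2 and Ltbp4, genes named for the latent TGF-beta binding protein family, fell by 1.35 ± 0.18 (adjusted p = 0.000425) and 1.38 ± 0.20 (adjusted p = 0.000702), Ltbp4 to 87.8 ± 34.9 CPM at 8 Gy, against 219 ± 52.9 CPM at 0 Gy. Whether either product held latent TGF-beta in these lungs was not measured. Nrros, whose product tethers latent TGF-beta on myeloid cells, rose by 0.57 ± 0.13 (adjusted p = 0.008). These 4 calls held without any single library. Lrrc32, another gene for a protein that tethers latent TGF-beta on cells, had -0.31 ± 0.28 (adjusted p = 0.463). Of 10 monocyte and macrophage markers 6 rose in the same comparison, beside 4.68% of all genes, and their part in the Nrros result was not tested. Gdf15, a stress-induced member of the superfamily, rose at 4 Gy against 0 Gy by 1.90 ± 0.27, to 6.02 ± 2.42 CPM at 4 Gy, against 1.40 ± 1.09 CPM at 0 Gy (n = 5 each; adjusted p = 0.00328). It is the 1 gene of the 77 that passed without the outlying libraries too (1.71, adjusted p = 0.0482). Itgav, the integrin chain that releases latent TGF-beta, had -0.55 ± 0.12 in that comparison (adjusted p = 0.0176), and -0.44 (adjusted p = 0.132) without the outlying libraries. Its call also ended without IgG 4 Gy replicate 2 (-0.50, adjusted p = 0.0935) or anti-PD-1 0 Gy replicates 1 or 2 (adjusted p = 0.0501 and 0.0508). Of the 24 genes 10 passed at 4 Gy against 0 Gy (41.7%, beside 17.5% of all genes). At 8 Gy against 4 Gy 14 passed (58.3%, beside 34.3% of all genes). Ltbp2 fell at 8 Gy against 4 Gy by 1.83 ± 0.18 (adjusted p = 8.43e-05) and Inhbb, the other activin subunit, by 1.77 ± 0.27 (adjusted p = 0.000647).

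Of 10 further receptors, Acvr1b and Acvr2b, which bind activins, fell at 8 Gy against 0 Gy by 0.47 ± 0.09 (adjusted p = 0.00333) and 0.69 ± 0.14 (adjusted p = 0.00456), and none rose. This share, 20%, is near the 20.7% of all genes. At 4 Gy against 0 Gy 3 of the 10 passed (30%, beside 17.5% of all genes). At 8 Gy against 4 Gy 6 of the 10 passed (60%, beside 34.3% of all genes). The call of Acvr2b ended under quantile normalization (-0.43, adjusted p = 0.0647). Acvrl1 and Eng, the endothelial receptor and co-receptor, were at 138 ± 40.9 and 132 ± 43.2 CPM at 4 Gy, against 57.1 ± 30.9 and 48.9 ± 29.4 CPM at 0 Gy. They rose by 1.29 ± 0.30 (adjusted p = 0.0182) and 1.45 ± 0.30 (adjusted p = 0.0136), and without the outlying libraries had 1.30 (adjusted p = 0.123) and 1.46 (adjusted p = 0.105). Both calls also ended without IgG 4 Gy replicate 2 (adjusted p = 0.0865 and 0.0786), and that of Acvrl1 without anti-PD-1 0 Gy replicate 1 (1.15, adjusted p = 0.0592). Acvrl1 fell at 8 Gy against 4 Gy by 1.40 ± 0.28 (adjusted p = 0.00284) and Bambi, a decoy receptor, by 1.14 ± 0.20 (adjusted p = 0.00145). The endothelial marker sum was highest at 4 Gy as well, and its part in these results was not tested.

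None of 19 SMADs, co-repressors and antagonists passed at 8 Gy against 0 Gy by limma, with 3 at an unadjusted p under 0.05, beside 34.7% of all genes. Smad6, the inhibitory SMAD of the BMP branch, rose at 4 Gy against 0 Gy by 1.26 ± 0.22 (adjusted p = 0.00858) and Smad4 fell by 0.45 ± 0.10 (adjusted p = 0.0149), among 2 that rose and 6 that fell (42.1% of the list, beside 17.5% of all genes). Without the outlying libraries Smad6 had 1.21 (adjusted p = 0.0856) and Smad4 -0.36 (adjusted p = 0.123), and both calls ended without IgG 4 Gy replicate 2 too (adjusted p = 0.0588 and 0.0896), that of Smad4 also without anti-PD-1 0 Gy replicate 2 (0.0527). Of 24 target genes 4 fell and 1 rose at 8 Gy against 0 Gy, or 20.8%. That share is near the 20.7% of all genes, so the counts of that comparison show nothing particular to targets. Tagln, a smooth muscle actin-binding protein gene, fell by 1.17 ± 0.21 (adjusted p = 0.00261), to 6.75 ± 1.54 CPM at 8 Gy, against 15.8 ± 4.80 CPM at 0 Gy. Col1a1, the main fibrillar collagen chain, fell by 0.89 ± 0.23 (adjusted p = 0.0152), to 207 ± 71.6 CPM at 8 Gy, against 379 ± 109 CPM at 0 Gy, a call that ended without anti-PD-1 0 Gy replicate 1 (-0.66, adjusted p = 0.0874). Snai1, a transcription factor gene of epithelial-mesenchymal transition, fell by 0.71 ± 0.21 (adjusted p = 0.026), and its call ended without any of 5 libraries (IgG 0 Gy replicate 1, IgG 8 Gy replicates 2 and 3, anti-PD-1 0 Gy replicate 1 and anti-PD-1 8 Gy replicate 1; adjusted p up to 0.115) and under equal library medians (-0.60, adjusted p = 0.0553). Bhlhe40, a transcription factor gene that many stimuli induce, rose by 0.46 ± 0.09 (adjusted p = 0.00321), to 246 ± 45.7 CPM at 8 Gy, against 183 ± 28.9 CPM at 0 Gy. Of the 24 targets, 19 did not pass at 8 Gy against 0 Gy. Between 4 and 0 Gy 1 rose and 4 fell (20.8%, beside 17.5% of all genes), and without the outlying libraries none of the targets passed. At 8 Gy against 4 Gy 11 of the 24 targets passed (45.8%, beside 34.3% of all genes). Of the 19 SMADs, co-repressors and antagonists 9 passed there (47.4%).

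**Figure D3:**
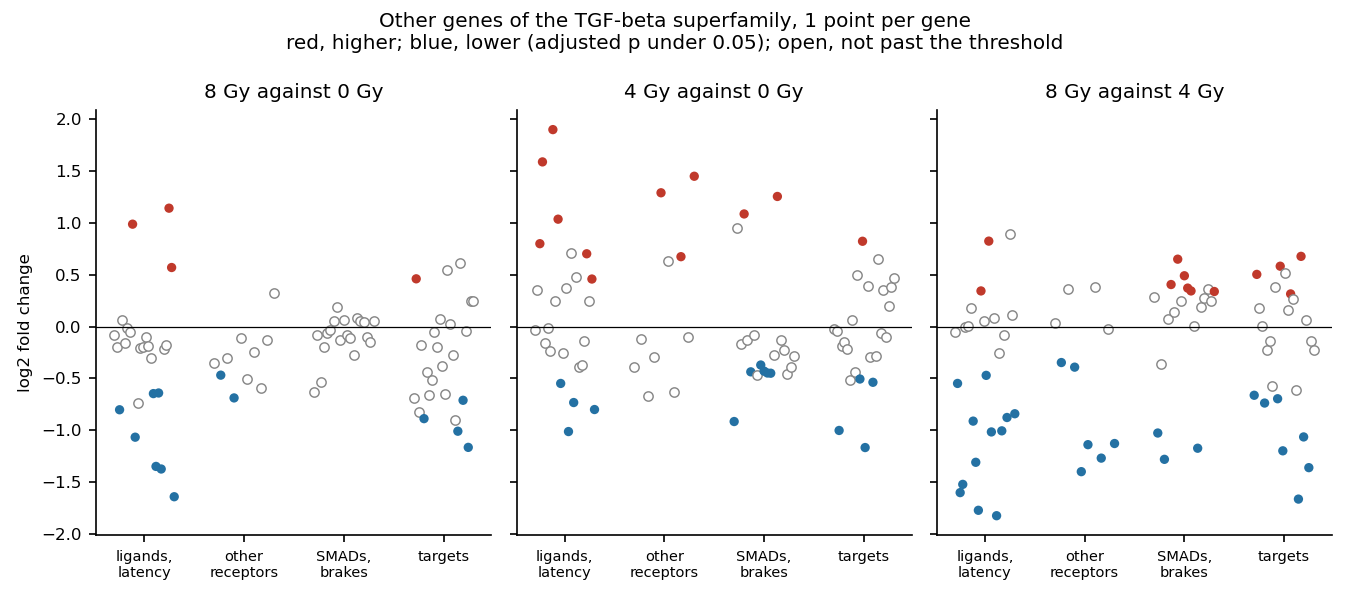
Log2 fold change (vertical axis) of each of 77 other pathway genes, 1 point per gene, grouped by role (horizontal axis), in the 3 dose comparisons over both antibodies; coloured points passed an adjusted p of 0.05. At 8 Gy against 0 Gy 13 points are lower and 4 higher, none of them among the SMADs and brakes.

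Markers of stromal, vascular, epithelial and red cells differed between the doses as well. Beside the marker counts below, 4.68% of all genes were higher and 16.1% lower at 8 Gy against 0 Gy. At 4 Gy against 0 Gy 5.33% were higher and 12.2% lower, and at 8 Gy against 4 Gy 34.3% passed. The summed CPM of 7 smooth muscle and pericyte markers ran from 48.3 to 62.0 at 0 Gy, from 52.7 to 88.6 at 4 Gy and from 15 to 30.5 at 8 Gy, so the 8 Gy libraries lay under all others. The 9 fibroblast markers summed to 86.9 to 229 CPM at 0 Gy, 230 to 391 CPM at 4 Gy and 66.3 to 141 CPM at 8 Gy, with 5 of the 9 lower and none higher at 8 Gy against 0 Gy. The 10 endothelial markers summed to 165 to 572 CPM at 0 Gy, 463 to 894 CPM at 4 Gy and 174 to 328 CPM at 8 Gy. These sums stand beside the lower Tgfb3, Tgfbr3, Ltbp2, Ltbp4, Col1a1 and Tagln at 8 Gy, and their part in those results was not tested. All 3 sums averaged more at 4 Gy than at 0 Gy. Tgfb3 averaged 51.5 CPM at 4 Gy, against 68.7 CPM at 0 Gy, and Tgfbr3 averaged 19.9 CPM at 4 Gy, against 24.9 CPM at 0 Gy. Neither gene passed in that comparison. The 10 monocyte and macrophage markers summed to 3477 to 7215 CPM at 0 Gy, 5192 to 8926 CPM at 4 Gy and 5278 to 7429 CPM at 8 Gy, and 6 of the 10 rose at 8 Gy against 0 Gy. The 2 anti-PD-1 libraries at 0 Gy, which had the lowest Tgfb1, also had the lowest sums of this list, at 3477 and 4137 CPM, and its part in the Tgfb1 result was not tested. The 9 platelet markers summed to 24.2 to 45.8 CPM at 0 Gy, 30.1 to 124 CPM at 4 Gy and 34.3 to 48.8 CPM at 8 Gy, and none passed at 8 Gy against 0 Gy or against 4 Gy, where Thbs1 rose (limma). The highest platelet sum, 124 CPM, was in anti-PD-1 4 Gy replicate 1, the library with the highest Thbs1 at that dose (259.9 CPM), and its part there was not tested. With IgG the 7 neutrophil markers summed to 128 to 194 (0 Gy), 126 to 145 (4 Gy) and 222 to 336 CPM (8 Gy). With anti-PD-1 they summed to 222 to 570, 133 to 205 and 164 to 203 CPM in the same order. The part of neutrophil RNA in the Thbs1 results was not tested. The 7 T cell markers summed to 190 to 552, 217 to 418 and 239 to 512 CPM at 0, 4 and 8 Gy. The mean epithelial sums differed by more fold between 4 Gy and the other doses than the stromal and vascular ones. In order of rising dose (0, 4 and 8 Gy) the 8 alveolar type 2 markers averaged 3243, 10455 and 2041 CPM, the 7 club cell markers 3433, 10748 and 2269 CPM, and the 9 alveolar type 1 markers 398, 1036 and 219 CPM. Of these lists 1 of 8, 2 of 7 and 6 of 9 genes fell and none rose at 8 Gy against 0 Gy, and at 4 Gy against 0 Gy 7, 4 and 6 rose and none fell. The 4 Gy counts include the 2 outlying libraries, without which 87 of all genes passed in that comparison, against 3076 with them. The 7 red cell markers averaged 6863, 15358 and 14434 CPM, and all 7 rose at 8 Gy against 0 Gy. Their sums overlapped between doses, at 1961 to 21926, 5294 to 30116 and 6482 to 22297 CPM. The highest at 0 Gy was IgG replicate 3. The part of epithelial and red cell RNA in the members' results was not tested. No marker of these lists was at 0 in any library.

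**Figure D4:**
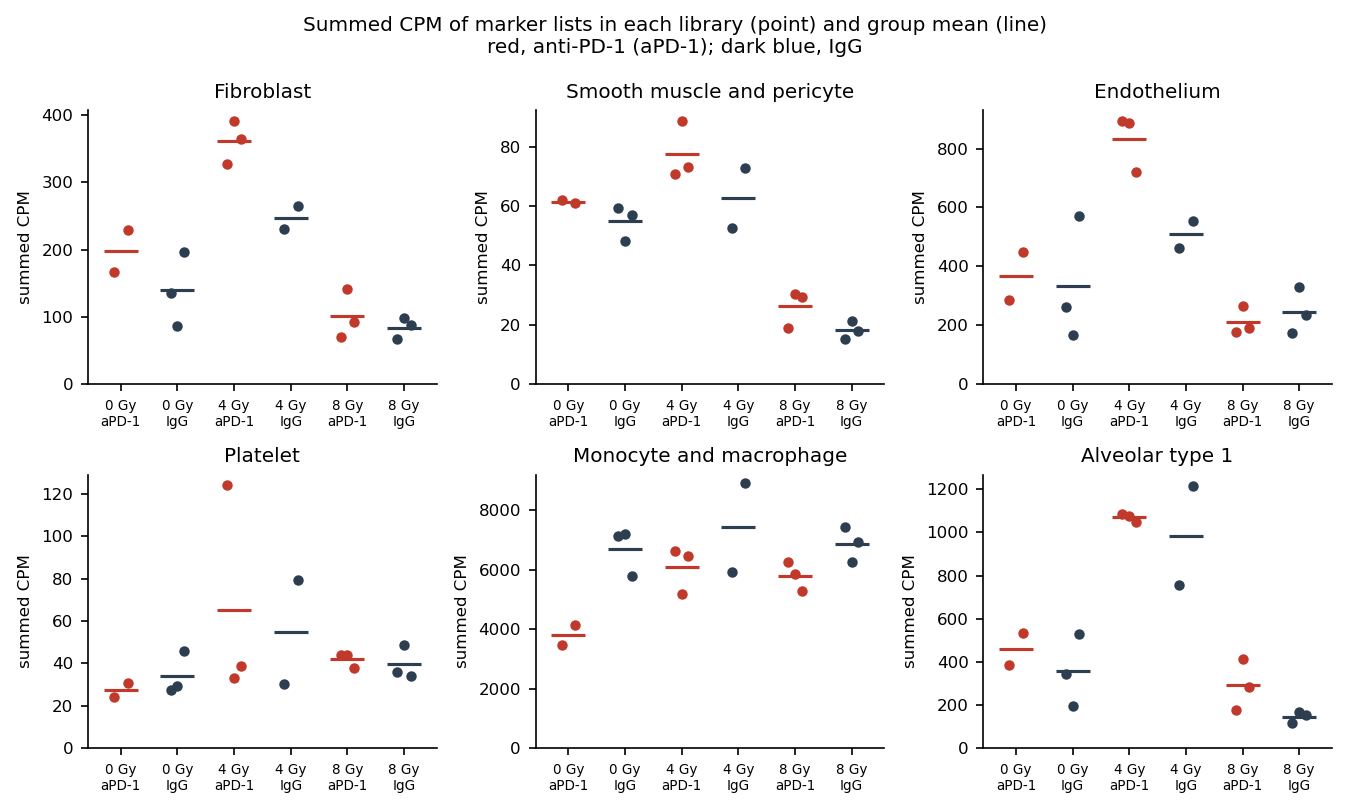
Summed CPM (vertical axis, from 0) of 6 marker lists in every library (points) with the group mean (line), by dose and antibody (horizontal axis; aPD-1 is anti-PD-1). The smooth muscle and pericyte sums are 15 to 30.5 at 8 Gy, under all other libraries, and the fibroblast and alveolar type 1 sums are highest at 4 Gy.

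The 14979 tested genes whose mean log2 value reached 1 were ranked for likeness to each member, by the root mean square (RMS) difference of their centred log2 values over the 16 libraries. Tgfb3 was nearest to Col5a1, a fibrillar collagen gene, with an RMS difference of 0.18, where Tgfb3's own spread was 0.54. Tgfbr1 was nearest to Slc7a11, the cystine transporter gene (0.17, own spread 0.77), and Tgfbr2 to Ids, a lysosomal sulphatase gene (0.09, own spread 0.26). Tgfb1 was nearest to Ubtd1 (0.15) and next to Slc11a1, a macrophage metal transporter gene (0.18, own spread 0.36). Tgfbr3 was nearest to Clk4 (0.18, own spread 0.47), Tgfb2 to Sdf2 (0.13, own spread 0.28) and Smad7 to Extl3 (0.12, own spread 0.19). The RMS differences were larger for Thbs1 and Inhba, whose own spreads were also the largest. Nearest to Thbs1 was Trem1, a receptor gene of neutrophils and monocytes, at 0.44 (own spread 0.81). Inhba was nearest to Dynap at 0.31 (own spread 0.97), followed by Mmp13 at 0.44. An RMS difference depends on a gene's own spread, so these values do not rank closeness between members. These are descriptions over libraries that share groups and scaling.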

How the data were processed

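RNA of mechanically ground lungs was purified on RNeasy Plus columns and 1 µg of each went into TruSeq libraries, per the labels' protocols. Per the submitters' processing notes STAR, Partek and the mm10 build were used; versions, counting rule and strandedness: not given in the sources used here. The authors deposited CPM (counts scaled to library size) per gene, with 1e-04 added to every value, as the values show; this offset was subtracted. Library sums were 866770 to 915006 CPM. Of the values under 100 reads, 57.9% to 63.8% per library were whole reads within 0.02, too few for a count model.

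Genes with at least 1 CPM in at least 2 libraries (17546 of 30095) were tested with limma 3.58.1 (with R 4.3.3; trend and robust empirical Bayes) on log2(CPM + 0.5), a scale that understates changes of low genes. The fit held 6 group means over 16 libraries and 16 comparisons, with Benjamini-Hochberg adjustment over all genes tested and a threshold of 0.05. Comparisons over both antibodies average the dose difference within each. No 2 libraries were identical. The model step was tested on simulated data.

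The members, the pathway lists, the 11 marker lists and the outlying libraries were chosen with earlier results of these data known. All 9 members are given where a comparison pools antibodies or doses; within an antibody or dose, those called and a few others are. From each pathway list, genes among the 4 lowest p-values of a comparison that passed could be named, and the main ones are given. Coordinates and exon lengths come from GENCODE M21 (mm10) and promoter sequence from RefSeq (GRCm38.p6). Alternatives were 2 other scalings, no filter, pseudocounts of 0.1 and 1, a replicate block, fits to the compared groups only, and fits without the outlying or any single library. The pathway genes were put through these alternatives after the data had been seen.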

Additional observations from a re-analysis of the deposited data

Results flagged for a closer look

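Tgfbr3 in IgG 4 Gy replicate 2, at 14.9 CPM, lay apart from the other 4 libraries at 4 Gy, which ran from 20.2 to 22.7 CPM. Its gap to the nearest was 0.72 of the range of the 5 libraries. It was the 1 value flagged among 27 sets of libraries examined (9 genes at 3 doses), and chance flags about 1 set in 20. Without this library Tgfbr3 at 8 Gy against 4 Gy was still called.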

How the results depend on the processing

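At 8 Gy against 0 Gy 4 members were called, and 2 with no filter, without the 2 outlying libraries or with only the compared groups in the fit. At 4 Gy against 0 Gy 1 member was called, and 0 under quantile normalization, equal library medians, the replicate block, without the outlying libraries or with only the compared groups. At 8 Gy against 4 Gy 3 members were called, 1 with no filter and 0 without the outlying libraries. Over all genes, calls at 4 Gy against 0 Gy numbered 3076, 87 without the outlying libraries and 130 with only the compared groups. At 8 Gy against 4 Gy they numbered 6011, and 2117 without the outlying libraries. For anti-PD-1 against IgG they numbered 41, 9 with the replicate block and 0 without the outlying libraries (limma). The sign turned for 4 uncalled values. At 4 Gy against 0 Gy Tgfb2 (-0.03) was 0.08 under quantile normalization and 0.08 under equal medians, Smad7 (-0.07) was 0.07, 0.04 and, without the outlying libraries, 0.02, and Inhba (-0.18) was 0.00 without them. Thbs1 for anti-PD-1 against IgG (-0.34) was 0.01 without them. The cause was not tested. With 1 library left out, members called ran from 2 to 4 (8 against 0 Gy), 0 to 3 (4 against 0 Gy), 0 to 5 (8 against 4 Gy) and 0 to 3 (anti-PD-1 against IgG), and genes called from 1983 to 4407, 97 to 5748, 3566 to 7406 and 0 to 1327. Values whose sign turned ran from -0.27 to 0.09 (Tgfbr1, 8 against 0 Gy), -0.10 to 0.04 (Tgfb2, 4 against 0 Gy), -0.58 to 0.14 (Inhba, 4 against 0 Gy) and -0.12 to 0.02 (Smad7, 8 against 4 Gy). Both pseudocounts left 46 of 46 member results on their side of the threshold. Of 41 results of named pathway genes 17 lost their call without the outlying libraries. Libraries of different groups with the same replicate number did not deviate together (r over 0.1 in 11 of 36 pairs, median -0.10), so the numbers are not read as pairs; under the replicate block 38 of 46 member results kept their side. The 2 outlying libraries are among the shallowest, and whether pool number or depth limits these values more was not tested.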
